A study of Homo sapiens with 4 samples.

Results

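Hexosamine and N-glycan assembly enzymes make the activated sugars of protein glycosylation, build the glycan on its lipid carrier and hand it to new proteins. The set held 36 genes, taken by symbol (current or older) from the array's annotation, of 15581 genes tested, and all 36 lay above background on all 4 arrays. Of these, 10 make sugar nucleotides, 15 act on dolichol-linked sugars, 8 encode subunits of oligosaccharyltransferase and 3 trim the transferred glycan. They were read by 47 probes, 2 for each of 11 genes and 1 for each of the other 25.

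The lines were DLD1 and HT29, established human colorectal cancer lines. Each was grown in complete medium and then kept for 24 h in medium with 10% dialysed fetal bovine serum, 2 mM glutamine and either 10 mM glucose or no added glucose. Glutamine and dialysed serum were thus common to all 4 groups. Each line and medium gave 1 single-colour array of RNA from a whole culture, which leaves differences inside one line unreplicated and without a p-value, and fewer cells of a type and less RNA per cell cannot be told apart.

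N-glycan assembly begins in the cytosol, where the hexosamine pathway turns fructose 6-phosphate and glutamine into UDP-GlcNAc and a parallel branch turns it into GDP-mannose. The ALG enzymes, named after yeast asparagine-linked glycosylation mutants, add these sugars and glucose to dolichol phosphate on both faces of the endoplasmic reticulum membrane. Oligosaccharyltransferase then moves the finished glycan to asparagines of proteins entering that compartment, where glucosidases and a mannosidase begin to trim it.

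The 2 lines carried the markers of epithelium unevenly. EPCAM, KRT18 and KRT19 were bright on all arrays, with normalized log2 intensities from 11.15 to 14.73. The intestinal transcription factor gene CDX2 was 8.67 with and 7.97 without glucose in DLD1 but 5.83 and 5.88 in HT29, close to the floor of about 5.73. LGALS4, a galectin of the intestinal epithelium, went the other way, with 5.95 and 6.13 in DLD1 against 11.25 and 11.97 in HT29. Other epithelial genes were dimmer than EPCAM, KRT18 and KRT19 on all arrays. CDH1 read 7.81 to 8.70, VIL1 at most 8.14, and CDX1 6.01 to 6.25, near the floor in both lines. The epithelial gene KRT8 and the endothelial gene PECAM1 had no probe. The leukocyte gene PTPRC and the fibroblast collagens COL1A1 and COL1A2 were below background on all arrays, whereas DCN, another fibroblast gene, read 7.29 to 7.37 on each. The leukocyte gene CD3E was above background on all arrays, at 5.74 to 5.81, and the endothelial gene CDH5 on 3, at 5.73 to 5.78 over the 4 arrays, both near the floor. Between 85.5% and 87.0% of probes were above background on an array.

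The promoters of the members with the largest shared change are shown first, as an aid to reading their values, along with that of GFPT2, for which the larger of the changes in the 2 lines was the nearest to 0. Each runs 5′ to 3′ along the gene's strand from 250 bases before to 50 bases after the annotated start (RefSeq, GRCh38.p14), and all 4 genes lie on the minus strand. Capitals mark CCACG, the closing letters of the endoplasmic reticulum stress element known from the unfolded protein response, or its complement CGTGG. The windows are chr2:69387178-69387477 for GFPT1, chrX:77895386-77895685 for MAGT1, chr3:49723902-49724201 for GMPPB and chr5:180353287-180353586 for GFPT2.
GFPT1: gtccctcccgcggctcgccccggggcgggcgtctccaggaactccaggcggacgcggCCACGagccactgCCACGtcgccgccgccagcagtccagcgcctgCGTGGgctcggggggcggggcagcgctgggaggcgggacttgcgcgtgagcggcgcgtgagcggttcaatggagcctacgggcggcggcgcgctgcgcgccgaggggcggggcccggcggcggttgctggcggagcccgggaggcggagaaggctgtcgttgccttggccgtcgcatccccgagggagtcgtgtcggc
MAGT1: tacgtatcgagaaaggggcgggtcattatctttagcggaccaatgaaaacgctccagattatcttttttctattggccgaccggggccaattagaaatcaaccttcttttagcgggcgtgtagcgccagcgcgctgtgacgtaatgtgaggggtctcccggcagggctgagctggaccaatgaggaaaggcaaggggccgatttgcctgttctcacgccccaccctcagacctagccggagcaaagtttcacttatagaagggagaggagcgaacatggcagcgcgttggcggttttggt
GMPPB: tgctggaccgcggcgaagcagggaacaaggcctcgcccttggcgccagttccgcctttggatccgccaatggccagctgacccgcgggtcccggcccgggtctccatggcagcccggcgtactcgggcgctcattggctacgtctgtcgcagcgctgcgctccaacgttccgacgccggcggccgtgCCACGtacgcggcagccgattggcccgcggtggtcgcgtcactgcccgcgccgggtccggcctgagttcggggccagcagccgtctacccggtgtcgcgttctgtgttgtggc
GFPT2: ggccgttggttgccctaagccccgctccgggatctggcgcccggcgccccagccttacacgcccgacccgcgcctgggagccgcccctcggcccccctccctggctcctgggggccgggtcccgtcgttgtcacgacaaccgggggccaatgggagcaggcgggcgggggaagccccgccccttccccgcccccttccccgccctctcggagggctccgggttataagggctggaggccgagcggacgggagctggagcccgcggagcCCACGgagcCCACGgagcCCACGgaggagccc

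GFPT1 held 3 matches, all before the start, GMPPB held 1, MAGT1 none, and GFPT2 held 3, all after the start in a short repeat. Of the 36 members, 32 had a promoter in the RefSeq table, and 11 of these had several. RPN1, MOGS, STT3B and TUSC3 were not matched. For motifs, all genes means the 27305 genes with a promoter in the RefSeq table (35116 promoters), not only those tested on the arrays. Whether members and these genes had like numbers of promoters was not tested. CCACG on either strand was found in 23 of the 32 (71.9%), against 42.1% of 27305 genes, and the median GC content of the members' windows was 63.2% against 58.3%. Among members at least 2-fold higher without glucose in HT29 it was in 5 of 8, and among the others in 18 of 24.

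The whole endoplasmic reticulum stress element, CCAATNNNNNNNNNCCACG, which ends in CCACG, was found in 1 of 32 members against 0.0916% of all genes. That member was ALG12, with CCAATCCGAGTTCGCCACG at chr22:49918554-49918572 on the minus strand, 134 bases before the start. The core TGACGTG of the unfolded protein response element was found in UAP1 alone among the members, against 2.40% of all genes. The C/EBP-ATF element TGATGNAAN was found in none of the 32 members and in 4.45% of all genes. These are matches of letters within the windows searched.

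The comparison of media asks how the genes of each step stood when glucose was withheld and glutamine left. Changes are given as log2 of the level without over that with glucose, positive where the level without glucose was higher. GFPT1, at the entry to the hexosamine pathway, and MAGT1, an oligosaccharyltransferase subunit, were at least 2-fold higher without glucose in both lines. In HT29 the later hexosamine genes PGM3 and UAP1, the GDP-mannose genes GMPPA and GMPPB, and the dolichol-linked genes ALG2 and ALG5 were also at least 2-fold higher. This gave 2 of 36 members in DLD1, where 1.20% of all genes passed the same fold, and 8 of 36 in HT29, where 3.81% did. No member was at least 2-fold lower in either line as reported, a fold that 0.809% of all genes reached in DLD1 and 3.30% in HT29.

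Higher levels without glucose in both lines were seen for 16 members (30.9% of all genes), lower levels in both for 9 (32.7% of all genes), and opposite signs for 11 (36.3% of all genes). These counts moved with the processing. With median scaling 11 members were higher in both lines (4930 of 15581 genes) and 13 lower in both (5446). The deposited values gave 13 higher (3870) and 10 lower (6000), and local background subtraction 18 higher (4523) and 6 lower (4604). For 12 members both arrays without glucose lay above both with it, a separation that 16.9% of all genes showed. For 4 members, DPM3, ALG6, ALG14 and MOGS, both lay below, as for 17.8% of all genes. With median scaling 8 members lay above (3113 of 15581 genes) and 6 below (3152). The deposited values gave 8 above (1985) and 6 below (3424), and local background subtraction 12 above (2802) and 1 below (2829). No member passed limma's test of the medium after Benjamini-Hochberg adjustment over 15581 genes, nor did any other gene (0%). At an unadjusted p below 0.05 in limma there were 12 of 36 members, against 13.8% of all genes in either direction. Of these members 8 were higher, against 947 of 15581 genes. With median scaling 3 of 10 such members were higher (515 of 2634 such genes). With the deposited values it was 4 of 8 (639 of 2310), and with the local background subtracted 4 of 4 (741 of 1628). The smallest adjusted p of any member was 0.303, in limma, for STT3B, and no gene had a smaller one. With 1 residual degree of freedom, the absence of calls does not show that levels were unchanged.

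**Figure D1:**
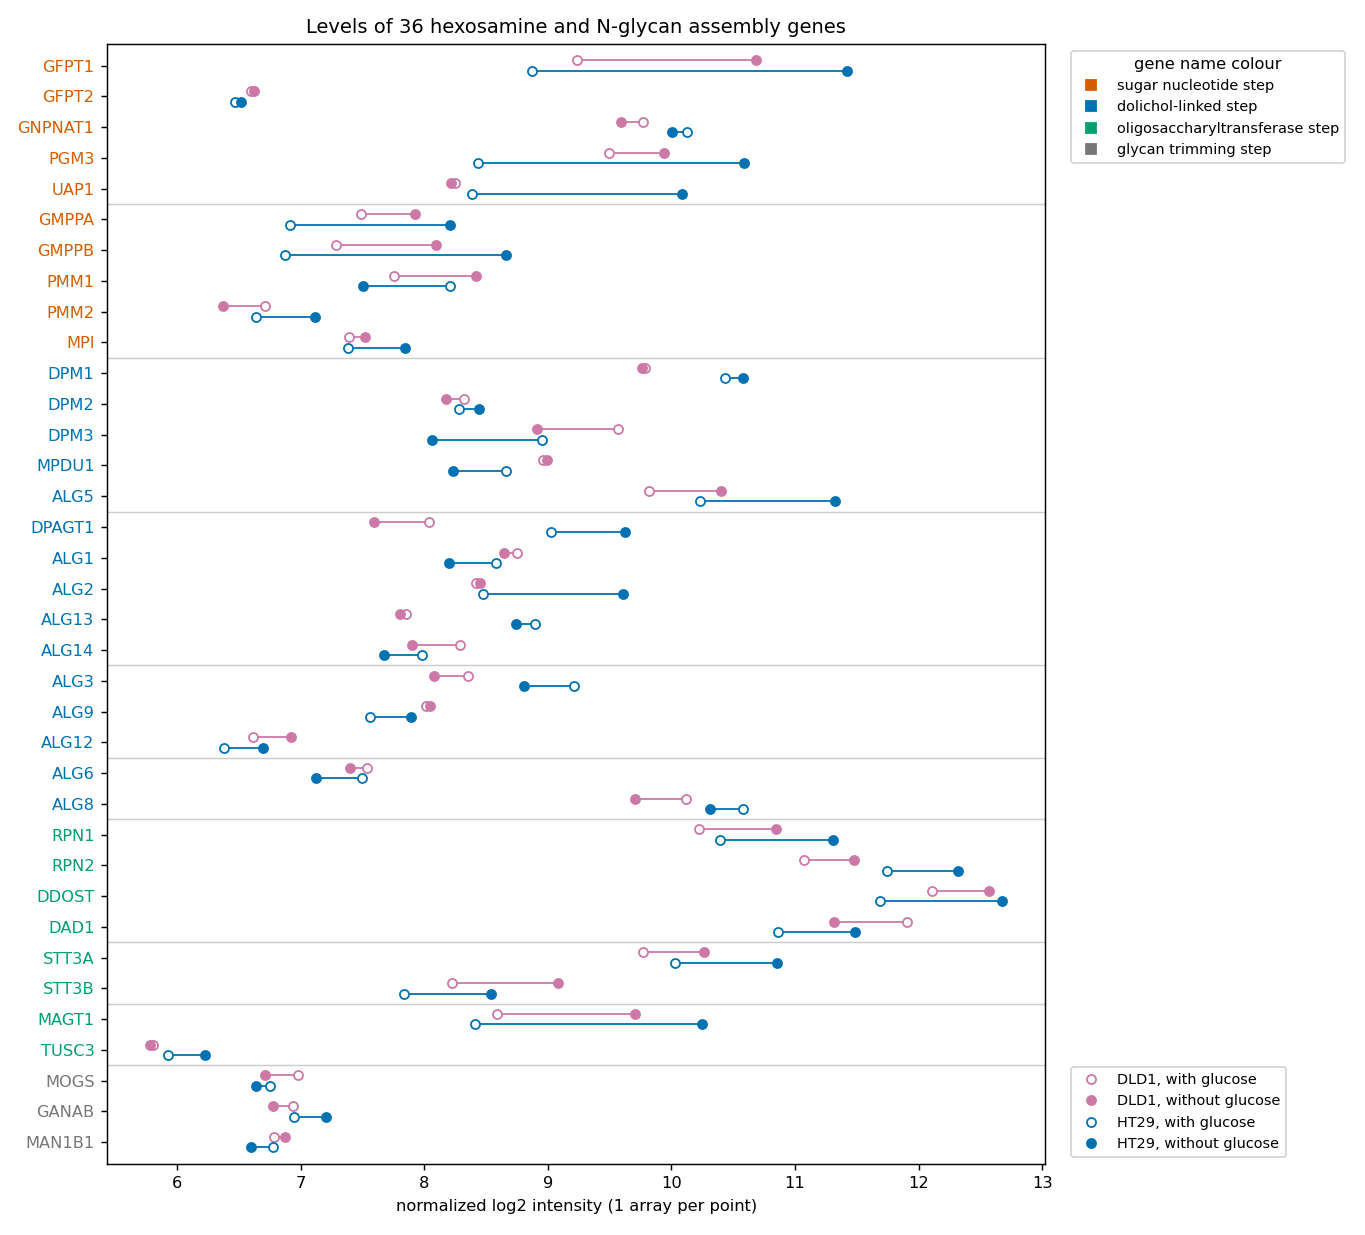
Normalized log2 intensity (horizontal axis) of the 36 members (vertical axis, grouped by step) on the 4 arrays; open circles are with and filled circles without glucose, and each line joins the 2 arrays of 1 cell line. GFPT1 and MAGT1 were over 1 log2 unit higher without glucose in both lines, whereas DPM3 was lower in both. Positions of different genes cannot be compared, because their probes differ.

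In the hexosamine pathway, GFPT1 showed the largest mean change of all members. It encodes the glutamine:fructose-6-phosphate amidotransferase that commits fructose 6-phosphate to UDP-GlcNAc. Its normalized log2 level was 9.24 with and 10.69 without glucose in DLD1, and 8.88 with and 11.42 without in HT29. Both arrays without glucose lay above both with it. The change was 1.45 in DLD1 (2.73-fold) and 2.55 in HT29 (5.84-fold), with a mean of 2.00 ± 0.78 (SD, n = 2 lines) that ranked 38 among 15581 genes, and limma's adjusted p = 0.328.

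Both GFPT1 probes showed this. In the deposited intensities the first read 537.5 with and 1314.1 without glucose in DLD1, and 370.0 and 2886.4 in HT29. The second read 368.0 and 811.5 in DLD1 and 396.2 and 2553.5 in HT29. With the local background subtracted the DLD1 change was 0.90, below 2-fold. GFPT2, which encodes the second isoform of the enzyme, stayed dim and level at 6.60 and 6.63 in DLD1 and 6.47 and 6.52 in HT29. Its changes, 0.02 and 0.05, took the other sign in 4 alternatives in DLD1 and 2 in HT29.

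PGM3 encodes the phosphomutase that converts GlcNAc 6-phosphate to the 1-phosphate. Its level was 9.49 with and 9.94 without glucose in DLD1, and 8.43 with and 10.58 without in HT29. The change was 0.45 in DLD1 and 2.15 in HT29 (4.44-fold). Its 2 probes gave 2.38 and 1.92 in HT29, and with the local background subtracted its changes were 0.06 and 0.88.

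UAP1 encodes the pyrophosphorylase that completes UDP-GlcNAc. Its level in DLD1 was 8.25 with and 8.21 without glucose, and in HT29 it was 8.38 with and 10.09 without. Only the HT29 array without glucose stood apart from the other 3. The change was 1.70 in HT29 (3.26-fold) and -0.04 in DLD1, a value that turned positive, by at most 0.01, with cyclic loess or the brightest probe. GNPNAT1, the acetyltransferase between GFPT1 and PGM3, had changes of -0.17 and -0.12, and of 0.73 and 0.68 with the local background subtracted. Over these 5 genes the median change was 0.02 in DLD1 and 1.70 in HT29.

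In the GDP-mannose branch the last step was the one that stood out. GMPPB encodes the GDP-mannose pyrophosphorylase, and GMPPA a related subunit that restrains it. GMPPB read 7.29 with and 8.10 without glucose in DLD1, and 6.88 and 8.66 in HT29. GMPPA read 7.49 and 7.92 in DLD1, and 6.92 and 8.21 in HT29. For both genes the 2 arrays without glucose lay above the 2 with it.

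GMPPB had changes of 0.81 and 1.79 (mean 1.30 ± 0.69, SD, n = 2 lines; adjusted p = 0.375 in limma), and 0.21 in DLD1 with the local background subtracted. That of GMPPA was 0.43 and 1.29 (mean 0.86 ± 0.61, SD, n = 2 lines; adjusted p = 0.436 in limma). With the local background subtracted its values were -0.26 and 0.997. MPI, the isomerase that feeds mannose 6-phosphate into the branch, had changes of 0.13 and 0.46, the DLD1 value being -0.01 with median scaling.

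The phosphomannomutase genes had changes of opposite sign in the lines. PMM1 read 7.76 with and 8.42 without glucose in DLD1 but 8.21 and 7.50 in HT29. Its changes were 0.66 and -0.71. PMM2, the isoform whose loss causes a congenital disorder of glycosylation, had changes of -0.34 in DLD1 and 0.48 in HT29. Over all 10 sugar nucleotide genes the median was 0.28 in DLD1 and 0.88 in HT29, against -0.002 for all genes in either line.

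**Figure D2:**
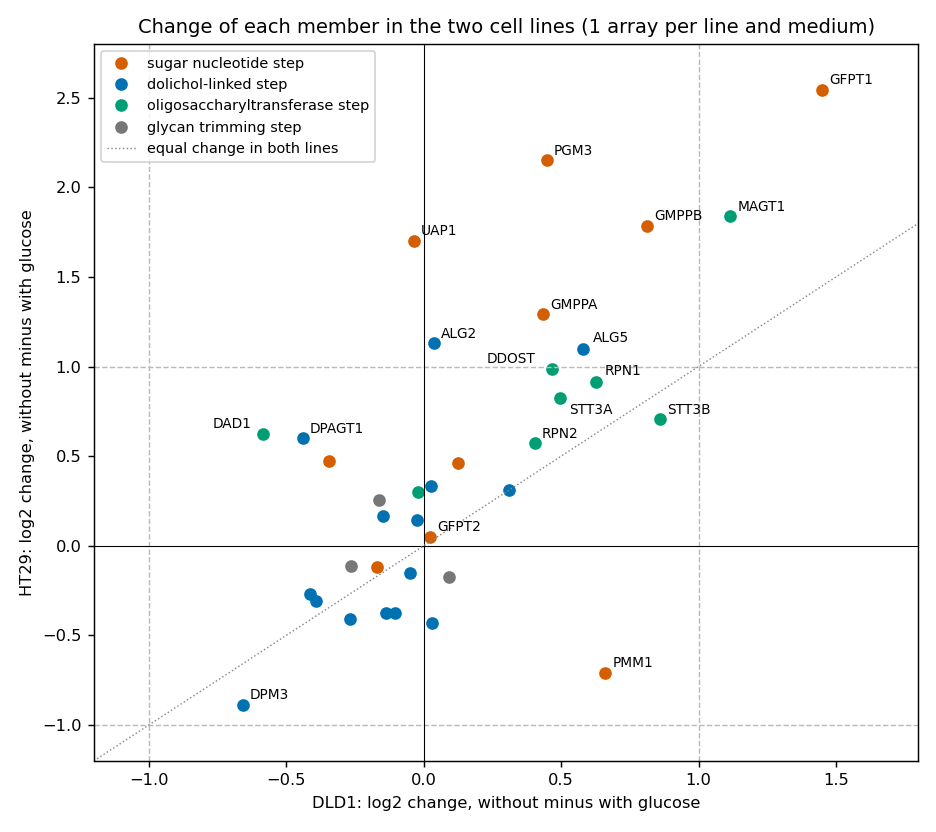
Log2 change without minus with glucose in HT29 (vertical axis) against DLD1 (horizontal axis) for the 36 members, 1 point each, coloured by step; dashed lines mark 2-fold and the dotted line equal change. GFPT1 and MAGT1 lie past 2-fold in both lines, PGM3, UAP1, GMPPA, GMPPB, ALG2 and ALG5 in HT29, and PMM1 and DAD1 have changes of opposite sign.

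The dolichol-linked step was mixed and had the lowest medians of the 3 steps of assembly. Its 15 members had a median change of -0.10 in DLD1 and -0.15 in HT29. Of them 4 were higher without glucose in both lines, 7 lower in both and 4 opposite, where 30.9%, 32.7% and 36.3% of all genes were. With only 15 members these counts do not set the step apart from the background, and they were not tested. With the local background subtracted the DLD1 median was 0.06, and with median scaling the medians were -0.34 and -0.43.

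Among the genes for the lipid-linked single sugars, ALG5 and DPM3 lay at opposite ends. ALG5, which makes dolichol phosphate glucose, read 9.82 with and 10.40 without glucose in DLD1, and 10.23 and 11.33 in HT29. Its changes were 0.58 and 1.10, and both arrays without glucose lay above both with it, although only just (10.40 against 10.23). With median scaling the HT29 change was 0.89, below 2-fold. The DLD1 change of ALG5 was 0.19 with median scaling and 0.26 in the deposited values. DPM3, which tethers the mannosyl transferase DPM1 to the membrane, read 9.57 and 8.91 in DLD1, and 8.95 and 8.07 in HT29.

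DPM3 was the lowest member by mean change, at -0.66 and -0.89 (mean -0.77 ± 0.16, SD, n = 2 lines; adjusted p = 0.304 in limma). DPM1, the catalytic subunit, had changes of -0.02 and 0.14, and DPM2, the other stabilising subunit, of -0.15 and 0.17. With the local background subtracted DPM3 was at -1.73 in DLD1, and with median scaling at -1.17 in HT29, both past 2-fold. MPDU1, needed for the use of dolichol phosphate sugars, had changes of 0.03 and -0.43. Of these small changes, those of DPM1 in both lines, DPM2 in HT29 and MPDU1 in DLD1 took the other sign in at least 1 alternative.

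On the cytosolic face, DPAGT1 adds the first sugar phosphate to dolichol and is the target of tunicamycin. It read 8.04 with and 7.59 without glucose in DLD1, and 9.03 and 9.63 in HT29. Its changes, -0.44 and 0.60, differed in sign, and both HT29 arrays lay above both DLD1 arrays. ALG2, which adds inner mannoses, read 8.41 and 8.45 in DLD1, and 8.48 and 9.61 in HT29.

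ALG2 thus had a change of 1.13 in HT29, which its 2 probes gave alike, and 0.04 in DLD1, where the sign turned in 3 alternatives. The HT29 value was below 2-fold after median scaling (0.91) or local background subtraction (0.96). ALG13 and ALG14, the 2 parts of the enzyme that adds the second GlcNAc, had changes of -0.05 and -0.15 and of -0.39 and -0.31. ALG1, the first mannosyltransferase, had changes of -0.10 and -0.38. With the local background subtracted ALG13 was positive in both lines (0.40 and 0.22), and ALG1 and ALG14 in DLD1 (0.09 and 0.08).

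On the lumenal face, ALG3, the first mannosyltransferase there, had changes of -0.27 and -0.41, ALG9 of 0.03 and 0.33, and ALG12 of 0.31 and 0.31. The glucosyltransferases ALG6 and ALG8 had changes of -0.14 and -0.37 and of -0.41 and -0.27. ALG3, ALG6, ALG8 and ALG12 kept their sign in both lines under the 5 alternatives that moved every member's values, whereas ALG9 did not. ALG8 was at -1.41 in DLD1 with the local background subtracted. ALG6 and ALG8 use dolichol phosphate glucose and were lower in both lines, while ALG5, which makes it, was higher in both. ALG10 and ALG10B, further users that are not members, had changes of -0.01 and -0.03 and of 0.14 and -0.15.

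Most oligosaccharyltransferase genes were higher without glucose in both lines. The 8 members of this step had a median change of 0.48 in DLD1 and 0.77 in HT29. Of them 6 were higher without glucose in both lines (30.9% of all genes) and none was lower in both (32.7% of all genes). MAGT1, an oxidoreductase subunit of the STT3B complex, had the largest mean change of them. It read 8.59 with and 9.70 without glucose in DLD1, and 8.41 and 10.25 in HT29.

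Both arrays without glucose lay above both with it. The change was 1.11 in DLD1 (2.16-fold) and 1.84 in HT29 (3.58-fold), with a mean of 1.48 ± 0.51 (SD, n = 2 lines), rank 105 of 15581 genes and limma's adjusted p = 0.318. In DLD1 it was below 2-fold after median scaling (0.78) or in the deposited values (0.89). TUSC3, which takes the same place in the complex as MAGT1, was barely above background at 5.80 and 5.78 in DLD1 and 5.93 and 6.23 in HT29. Its probes read 2.6 to 20.9 in the deposited intensities, so little can be said of its change.

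The catalytic subunits were higher without glucose in both lines. STT3A, which acts on proteins as they enter the translocon, read 9.77 with and 10.26 without glucose in DLD1, and 10.03 and 10.86 in HT29. STT3B, which acts on sites that STT3A skipped, read 8.22 and 9.08 in DLD1, and 7.84 and 8.54 in HT29. For each gene both arrays without glucose lay above both with it.

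STT3B had changes of 0.86 and 0.71 (mean 0.78 ± 0.11, SD, n = 2 lines; adjusted p = 0.303 in limma) and STT3A of 0.49 and 0.83 (mean 0.66 ± 0.23, SD, n = 2 lines; adjusted p = 0.324 in limma). The STT3A value in DLD1 turned to -0.41 with the local background subtracted, and was 0.11 with median scaling and 0.18 in the deposited values. Of the shared subunits, the ribophorin genes RPN1 and RPN2 had changes of 0.63 and 0.91 and of 0.40 and 0.57, and DDOST of 0.47 and 0.99. RPN1 was 0.08 in HT29 with the local background subtracted, and RPN2 was at -0.00 in DLD1 with median scaling. DAD1, a small subunit first described as a defender against cell death, read 11.90 with and 11.32 without glucose in DLD1 but 10.86 and 11.49 in HT29. Its changes of -0.59 and 0.62, like those of PMM1, were of opposite sign and at least 0.5 in size in each line, as for 0.571% of all genes, and the DLD1 value was -2.48 with the local background subtracted.

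The trimming genes showed no shared shift. MOGS, which encodes glucosidase I, had changes of -0.27 and -0.11, GANAB, the catalytic subunit of glucosidase II, of -0.16 and 0.25, and MAN1B1, a mannosidase of the secretory pathway, of 0.09 and -0.17. All except GANAB in HT29 and MAN1B1 in DLD1 changed sign with the local background subtracted.

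**Figure D3:**
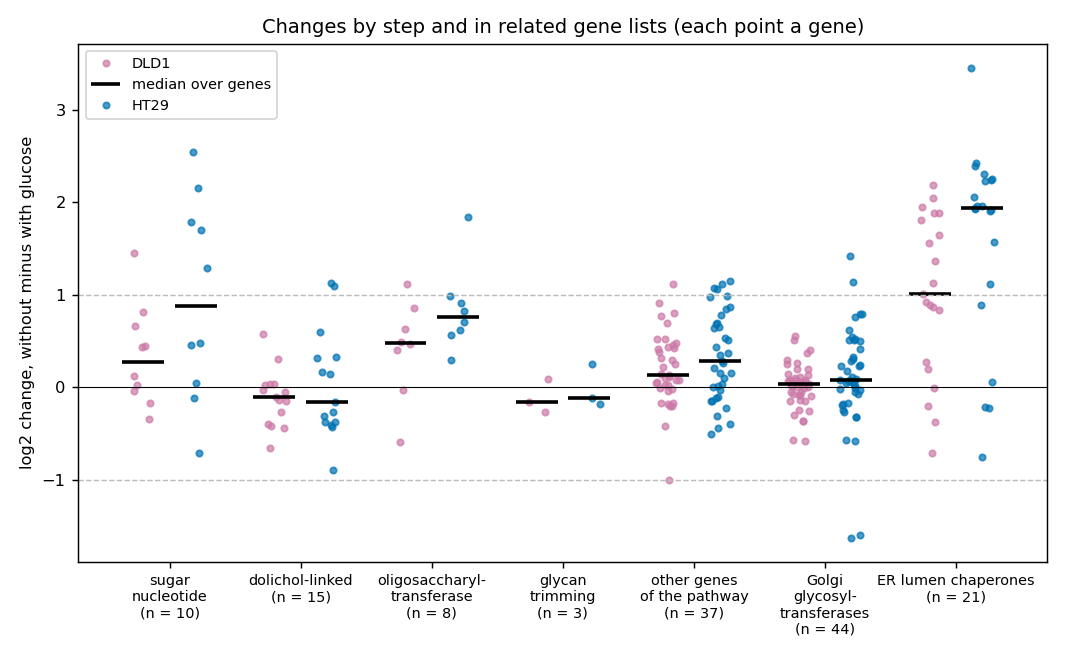
Log2 change without minus with glucose by step and line, 1 point per gene, with horizontal bars at the medians; the comparison lists are shown on the same scale. The oligosaccharyltransferase medians are 0.48 in DLD1 and 0.77 in HT29, the sugar nucleotide medians 0.28 and 0.88, and the dolichol-linked medians -0.10 and -0.15.

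Taking the mean of both lines for each gene, the median was 0.56 for the sugar nucleotide step (the SD of its line medians was 0.43), -0.10 for the dolichol-linked step (SD 0.035), 0.69 for oligosaccharyltransferase (SD 0.20) and -0.04 for trimming (SD 0.036), each SD being over n = 2 lines. The dolichol-linked median was the lowest of the 3 assembly steps in both lines under the reported processing and under all alternatives run, of which 2 filters could not move it. The order of the other 2 differed between the lines. Oligosaccharyltransferase had the higher median in DLD1 and the sugar nucleotide step in HT29, under all settings run. As the members were chosen with results of these data known, these medians are descriptions without a test.

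**Figure D4:**
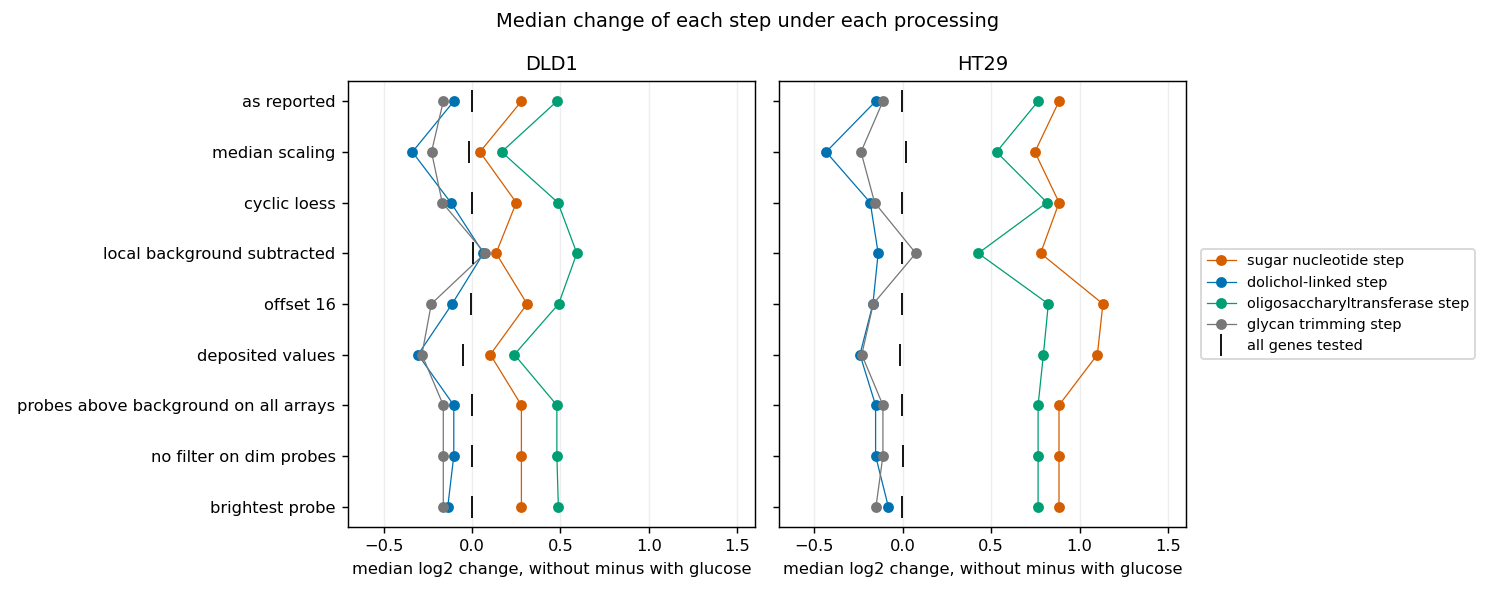
Median log2 change of each step (horizontal axis) in DLD1 (left) and HT29 (right) under the reported processing and 8 alternatives (vertical axis); vertical ticks are the medians of all genes. In DLD1 the sugar nucleotide median was 0.045 with median scaling and the oligosaccharyltransferase median 0.17, while the dolichol-linked and trimming medians changed sign with the local background subtracted.

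Changes were larger in HT29 than in DLD1 for 27 of 36 members, counting signed values, against 7814 of 15581 genes. The count was 21 with the local background subtracted (7397 of 15581 genes), 25 with median scaling (9108) and 28 in the deposited values (8894). The spread of changes over all genes was itself wider in HT29, with an SD of 0.534 against 0.342, and the ratio of these SDs was 1.56 as reported but 0.918 with the local background subtracted. The part of this in the members' larger HT29 changes was not tested. Of the 8 alternatives, 5 moved the values of every member, the brightest probe could move only the 11 members with 2 probes, and the other 2, filters on dim probes, left every member as it was. In DLD1, 19 of 36 members kept the sign of their change throughout, and in HT29 28 did. STT3A, at 0.49, had the largest reported change in DLD1 among those that did not, and ALG9, at 0.33, that in HT29.

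The comparison of lines asks which members stood at different levels in HT29 and DLD1 regardless of the medium. No member, and no gene (0%), passed limma's test of the line after adjustment, and 11 of 36 members had an unadjusted p below 0.05 against 21.4% of all genes. ALG13 had the smallest adjusted p among members, 0.136 in limma, and was 1.04 higher in HT29 with glucose and 0.94 higher without. DPAGT1 was 0.99 and 2.03 higher in HT29. For PGM3 the order of the lines turned with the medium, since HT29 minus DLD1 was -1.06 with glucose and 0.64 without, and for UAP1 the difference went from 0.13 to 1.87.

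Other genes of the same pathway, 37 measured of 42 listed, had medians of 0.14 in DLD1 and 0.29 in HT29. Of them 23 were higher without glucose in both lines (30.9% of all genes) and 6 lower in both (32.7% of all genes). None passed the adjusted limma test, nor did any other gene (0%). At an unadjusted p below 0.05 there were 11 genes, 10 higher and 1 lower. Of all genes 13.8% reached this in either direction, and 947 of 15581 were higher. The largest mean changes were those of OSTC, another oligosaccharyltransferase subunit (0.91 and 1.15), the lectin chaperone genes CALR (1.12 and 0.85) and CANX (0.78 and 0.99), and OGT, which attaches single GlcNAc residues to cytosolic and nuclear proteins (0.69 and 0.98). OGA, which removes those residues, was at the other end with -0.997 in DLD1 and -0.15 in HT29. DOLK, the dolichol kinase gene, followed with -0.42 and -0.31.

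The list of Golgi glycosyltransferases, which also held mannosidase genes such as MAN1A1, had medians of 0.04 and 0.08 over 44 measured genes. Of these 19 were higher in both lines (30.9% of all genes) and 9 lower in both (32.7% of all genes). The largest changes by mean were FUT1 (0.40 and 1.14) and B3GNT5 (0.06 and 1.42), and, below 0, GALNT12 (-0.08 and -1.63) and ST3GAL4 (0.27 and -1.60). Chaperones of the endoplasmic reticulum lumen had medians of 1.01 and 1.94 over 21 genes, 11 of which were at least 2-fold higher in both lines, as 0.700% of all genes and 2 of the 36 members were. All of these lists share the same 4 arrays with the members.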

How the data were processed

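Amplified amino-allyl RNA was labelled with Cy5, per the labels' protocols. Groups came from the sample titles, and no label says whether cultures were repeated. The p-values of the medium rest on how its change varied between the 2 lines. Those of the line rest on how the line difference varied between the 2 media. Both also use a spread that limma's eBayes step borrows from all genes, and neither measures the spread between repeated cultures. The growth protocol says that glucose or glutamine was added, and the titles give both nutrients for one medium and glutamine alone for the other. Per the file headers, the deposited scanner files give a median intensity for each spot and its surroundings at 635 nm, combined over 3 gains without background subtraction. The deposited value table holds intensity with a median of 25 per array. It followed the spot medians (r = 1), but its making is not stated in those sources. Median probe signals were 53.1 to 57.9, against 34.4 to 35.6 for 2680 blank spots, and the 4 arrays limit the precision.

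Spot medians were background corrected (normexp, offset 50, which shrinks changes of dim genes) and then quantile normalized (limma 3.58.1, R 4.3.3). Local background was left out since it tracked the spots (r between logs 0.904 to 0.966). Of 24460 probes, 1 with a flag was left out, 20236 had 1 symbol and 0 had several, and 2899 older symbols were updated through RefSeq synonyms. Probes named GPT and WBP1, current symbols of other genes, were not used for DPAGT1 and DDOST. A probe was above background over the 95th percentile of blank spots, and each gene was given the mean of such probes. The medium was tested with the line as a block and the line with the medium as a block (lmFit, eBayes, 1 residual degree of freedom), adjusted over all genes at 0.05. Simulated data with planted changes were used to check that the mean estimated change lay near the planted one. That check set no requirement on what limma could call. Alternatives changed the normalization, background, offset, values, filter or probe choice.

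Members and lists were chosen with earlier results of these data known. Members are given on every array where at least 2-fold apart in either line, where they are committed or branch enzymes, or where their changes were of opposite sign and at least 0.5 log2 in each line. Other lists are represented by up to 4 genes of largest mean change either way. Promoters were those of up to 4 members with the largest smaller change and up to 2 nearest 0. The motif examples ALG12 and UAP1, and the line differences named, were chosen after their values were seen.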

Additional observations from a re-analysis of the deposited data

Results flagged for a closer look

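The changes of 2 members were of opposite sign in the lines, by at least 0.5 log2 in each, as were those of 0.571% of all genes. For PMM1 the change in HT29 minus that in DLD1 was -1.37 (0.66 in DLD1, -0.71 in HT29). For DAD1 it was 1.21 (-0.59 in DLD1, 0.62 in HT29). Each line gave 1 array per medium, so neither difference was tested. Both genes kept these signs under the 5 alternatives that moved every member's values, and DAD1 was at -2.48 in DLD1 with the local background subtracted.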

How the results depend on the processing

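The number of members called by limma was 0 for medium and line under every setting, and leaving out an array left no residual degree of freedom for these tests. Members at least 2-fold higher in DLD1 numbered 1 after median scaling and 1 in the deposited values (GFPT1), and 3 with the local background subtracted (RPN2, DDOST and MAGT1), where 0.616%, 1.08% and 3.22% of all genes passed. In HT29 they numbered 5 with the local background subtracted, where PGM3, GMPPA and ALG2 stayed below it at 0.88, 0.997 and 0.96 (3.14% of all genes). Members at least 2-fold lower in DLD1 numbered 3 with the local background subtracted (DPM3, ALG8 and DAD1; 3.57% of all genes), and in HT29 1 (DPM3) under both median scaling (5.73% of all genes) and the deposited values (6.08%). The median of mean changes in the dolichol-linked step was -0.32 with median scaling, -0.21 with the local background subtracted and -0.22 with the deposited values. That of oligosaccharyltransferase was 0.41 under median scaling and 0.40 after local background subtraction. That of trimming was -0.14 with median scaling, -0.079 with cyclic loess, 0.047 with the local background subtracted and -0.13 with the deposited values. Leaving out each line in turn gave 0.026 to 0.322 for all members, 0.28 to 0.88 for the sugar nucleotide step, -0.15 to -0.10 for the dolichol-linked step, 0.48 to 0.77 for oligosaccharyltransferase and -0.16 to -0.11 for trimming. The median of all members was -0.022 with median scaling. For 14 members, 148 values differed from the reported ones, of which 22 moved by more than the SD between lines, a yardstick that is wide where the lines differ, and 13 took the other sign. The cause of these shifts was not tested. Dim genes such as TUSC3 and GFPT2 limit what signal over background can show. The test of the medium already pairs the arrays by line.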
